A study of Mus musculus with 6 samples.

Results

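Microglia are the resident macrophages of the brain, and the genes described here are 10 genes that mark them in their resting, homeostatic state. They were taken by name from the gene table of RNA-seq of O4-purified cells: P2ry12, Tmem119, Cx3cr1, Csf1r, Sall1, Siglech, Gpr34, C1qa, C1qb and C1qc. Each name stood in 1 row, so the list holds 10 of the 55492 genes of the table, and 10 of 10 passed the filter on low expression that left 15245 genes. Expression was compared between 3 WT and 3 Npc1-/- littermate mice at P16 (16 days of age), the Npc1-/- mice being homozygous for the Npc1nih null allele on an F1 background of BALB/cJ and C57BL6/J. Whole brains were dissociated, and cells that carry O4, a sulfatide antigen of late progenitors and immature oligodendrocytes, were drawn out with microbeads after blocking of Fc receptors, with 1 poly(A) RNA library per mouse. The beads select for the oligodendrocyte lineage and not for microglia, and which cells the RNA of these genes came from was not measured. Every cell of an Npc1-/- mouse lacks NPC1.

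Microglia enter the brain in the embryo and depend on the receptor CSF1R, which binds the growth factors CSF1 and IL-34. TGF-β signalling and the transcription factors PU.1, IRF8, MEF2C and SALL1 keep them in the homeostatic state. In this state they survey tissue through receptors such as P2RY12 and CX3CR1. Genes such as P2ry12, Tmem119 and Cx3cr1, though not every gene of the list, are lowered in microglia that respond to injury or to stored lipid. C1q, the first component of the classical complement pathway, is built from 3 chains whose genes lie side by side and is made in the brain mainly by microglia.

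Of the 10 genes, 9 had lower mean levels in Npc1-/- than in WT cells, at 34.6% (Tmem119) to 60.5% (C1qb) of the WT mean, and Sall1 was at 118%. Only Tmem119 passed the test across all genes (limma, called at an adjusted p below 0.05 with a log2 fold change of 0.1 or more in size). This is 1 of 10 genes called, and it was called lower, where 0.413% of all tested genes were called lower and 0.813% in either direction. In 5 of the 10 genes (P2ry12, Tmem119, Cx3cr1, Csf1r and C1qa) every Npc1-/- library was below every WT library, against 14.2% of all tested genes. At an unadjusted p below 0.05, 9 of the 10 were lower, against 11.6% of all tested genes. Their log2 fold changes had a median of -0.81, beside 0.01 over all genes tested. The genes share their cells and their 6 libraries and are not independent of one another, and in bulk RNA fewer microglia and less RNA of these genes per cell cannot be told apart.

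Levels are given as scaled TPM, the deposited TPM (abundance per length of transcript, brought to the same total in every library) divided by a size factor per library. The length term lets levels be compared between genes, and the size factor lets them be compared between libraries. The libraries held about 40250000 to 50250000 fragments, as estimated from the steps between low values. Npc1 itself was at 45.5 to 53.3 TPM in WT and at 3.16 to 4.42 TPM in Npc1-/- libraries. The library of Npc1-/- replicate 3 was the only one with Xist (15.6 TPM) and without the Y-linked Ddx3y, so the sexes were not balanced between the groups. Markers of the oligodendrocyte lineage were the most abundant by far (summed scaled TPM 158785 to 383613, mostly Mbp), while the 10 microglia genes summed to 212 to 338 scaled TPM in WT and 101 to 191 in Npc1-/- libraries.

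The C1q genes lie on chromosome 4 in the order C1qb, C1qc, C1qa (GRCm38, minus strand). The sequences upstream of C1qb and C1qc are shown because these neighbouring genes kept a nearly fixed ratio to each other in all 6 libraries (below), and that of P2ry12 is shown as the promoter of the most abundant of the specific surface markers. They run from RefSeq annotation of GRCm38.p6, 5′ to 3′ on the strand of the gene. C1qb is shown at chr4:136886201-136886450, C1qc at chr4:136893066-136893164 (the bases before its outermost annotated start) and P2ry12 at chr3:59262986-59263235. Capitals mark the only match to GAGGAAGT, a core bound by PU.1, searched on both strands; in C1qc it is on the opposite strand, so it reads ACTTCCTC.
C1qb: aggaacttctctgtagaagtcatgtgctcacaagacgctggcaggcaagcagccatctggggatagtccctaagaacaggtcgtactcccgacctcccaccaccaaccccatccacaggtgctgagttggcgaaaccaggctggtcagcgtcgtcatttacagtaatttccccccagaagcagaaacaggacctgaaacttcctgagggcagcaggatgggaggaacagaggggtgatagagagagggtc
C1qc: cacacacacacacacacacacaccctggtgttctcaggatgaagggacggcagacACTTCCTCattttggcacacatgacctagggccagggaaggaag
P2ry12: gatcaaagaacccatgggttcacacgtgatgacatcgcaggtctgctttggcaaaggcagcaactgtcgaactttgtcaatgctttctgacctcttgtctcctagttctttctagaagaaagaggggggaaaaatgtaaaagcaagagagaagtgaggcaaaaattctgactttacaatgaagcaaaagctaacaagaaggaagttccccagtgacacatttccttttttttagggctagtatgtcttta
A window of 250 bases before the start was at hand for 6 of the 10 genes (P2ry12, Cx3cr1, Sall1, Siglech, C1qb and C1qc). GAGGAAGT was in 1 of the 6 (C1qc, 188 to 195 bases before its RefSeq start), and in 2.79% of the 27025 genes with a window. The repeated GAAA of an IRF element, searched the same way, was in 0 of the 6 and in 3.46% of all genes, and TATAAA was in 0 of the 6 and in 14.3%. These are matches of letters in a short window and say nothing of binding.

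**Figure D1:**
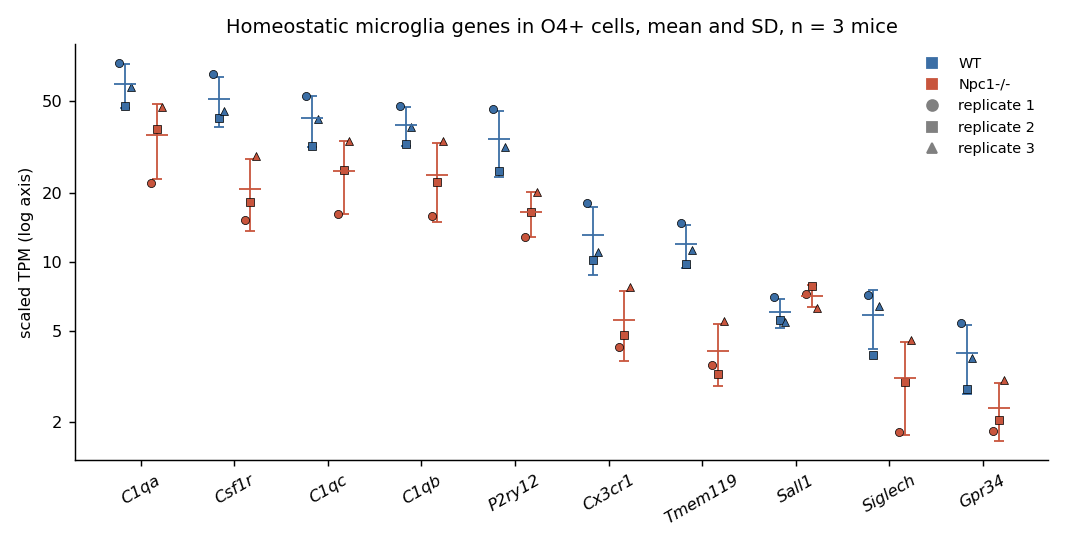
Scaled TPM (log axis) of the 10 homeostatic microglia genes, ordered by WT mean, with 1 point per library (marker shape for the replicate), a horizontal dash for the mean and whiskers for the SD (n = 3 mice per genotype). C1qa is the highest in both genotypes (59.6 in WT and 35.7 in Npc1-/-), Gpr34 the lowest (4.0 and 2.32), and Sall1 is the one gene whose Npc1-/- mean is above its WT mean.

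The levels in WT fell into 3 tiers. C1qa (59.6 ± 12.9 scaled TPM, SD, n = 3), Csf1r (51.0 ± 12.6), C1qc (42.2 ± 10.5), C1qb (39.5 ± 7.61) and P2ry12 (34.3 ± 11.0) formed the upper tier, in which the ranges of neighbours overlapped. Cx3cr1 (13.1 ± 4.26) and Tmem119 (11.9 ± 2.53) stood below it, and Sall1 (6.02 ± 0.863), Siglech (5.85 ± 1.69) and Gpr34 (4.0 ± 1.33) below those. The ranges did not overlap between P2ry12 and Cx3cr1, nor between Tmem119 and Sall1. In Npc1-/- cells the order was C1qa, C1qc, C1qb, Csf1r, P2ry12, Sall1, Cx3cr1, Tmem119, Siglech and Gpr34, and the only neighbours whose ranges did not overlap were P2ry12 and Sall1. Csf1r thus ranked 2 in WT and 4 in Npc1-/- cells, behind the C1q chains, and Sall1 ranked 8 in WT and 6 in Npc1-/- cells.

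Tmem119 (chr5:113793729-113800516, minus strand) encodes a small transmembrane protein used to tell microglia from blood-derived macrophages. Its levels were 14.7, 9.78 and 11.2 scaled TPM in the WT libraries and 3.54, 3.26 and 5.53 in the Npc1-/- libraries. The groups did not overlap, and the highest Npc1-/- value lay well under the lowest WT value. Tmem119 fell by 1.44 on the log2 scale (SE 0.22, 95% interval -1.96 to -0.92; limma, adjusted p = 0.0442), and the exact permutation test over the 6 libraries gave 0.1, the smallest p that 3 against 3 libraries allow. The call was near the threshold: without Npc1-/- replicate 3 it remained, and it was lost without any other single library (adjusted p 0.0698 to 0.190), when 0 of the 10 genes passed. Without Npc1-/- replicate 3, 3 of the 10 passed (Tmem119, Csf1r and Cx3cr1), where 2.47% of all genes were called lower. With no filter on low values, or with no trend in the variance, 0 of the 10 passed. On TPM as deposited 8 passed, where 5.71% of all genes were called lower and the median over all genes was -0.33.

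Csf1r (chr18:61100598-61132149, plus strand) encodes the receptor on which microglia depend for survival. It was at 65.4, 42.3 and 45.2 scaled TPM in WT and at 15.2, 18.2 and 28.9 in Npc1-/- libraries. Again no Npc1-/- library reached the lowest WT library. The log2 fold change was -1.30 (SE 0.26, interval -1.90 to -0.69), which did not pass across all genes (limma, adjusted p = 0.058). Csf1r lies on the same chromosome as Npc1, 48.9 Mb away, and exons of the gene Hmgxb3 on the opposite strand overlap it. Hmgxb3 was at 9.01 to 11.6 scaled TPM over all 6 libraries. Whether reads were counted by strand is not stated, and the part of Hmgxb3 reads in the Csf1r values was not tested.

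Cx3cr1 (chr9:119901616-120069879, minus strand) encodes the receptor for fractalkine, a ligand made by neurons. It was at 17.9, 10.2 and 11.1 scaled TPM in WT and at 4.25, 4.81 and 7.76 in Npc1-/- libraries, so the groups did not overlap. The log2 fold change was -1.15 (SE 0.27, interval -1.79 to -0.51; limma, adjusted p = 0.0733). Its annotated span also takes in Wdr48, Gorasp1, Ttc21a, Csrnp1 and Xirp1, none of which shares an exon with it.

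P2ry12 (chr3:59216272-59262871, minus strand) encodes an ADP receptor that steers microglial processes toward damage. Its levels were 46.4, 24.9 and 31.7 scaled TPM in WT and 12.9, 16.5 and 20.1 in Npc1-/- libraries. The groups did not overlap, although WT replicate 1 stood far above the other WT libraries. The log2 fold change was -1.01 (SE 0.25, interval -1.59 to -0.43; limma, adjusted p = 0.0777). P2ry12 lies inside Med12l on the opposite strand, whose exons overlap it and whose level was 1.53 to 2.07 scaled TPM.

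Siglech and Gpr34 were the least abundant surface genes. Siglech (chr7:55768178-55778925, plus strand), a sialic acid-binding lectin of microglia and plasmacytoid dendritic cells, was at 7.16, 3.94 and 6.44 scaled TPM in WT and at 1.82, 3.01 and 4.56 in Npc1-/- libraries. The groups overlapped, since Npc1-/- replicate 3 was above WT replicate 2. The log2 fold change was -0.84 (SE 0.32, interval -1.59 to -0.09; limma, adjusted p = 0.18), and -0.55 without Npc1-/- replicate 1. Gpr34 (chrX:13632089-13640858, plus strand), a receptor for lysophosphatidylserine, was at 5.42, 2.78 and 3.80 in WT and at 1.84, 2.05 and 3.07 in Npc1-/- libraries. These groups also overlapped through Npc1-/- replicate 3, the only library with Xist, for a log2 fold change of -0.66 (SE 0.25, interval -1.26 to -0.06; limma, adjusted p = 0.187). Gpr34 sits in an intron of Cask, a gene of the opposite strand at 21.2 to 32.4 scaled TPM.

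The 3 chains of C1q were lower by nearly the same factor. C1qa (chr4:136895917-136898803) was at 73.3, 47.8 and 57.8 scaled TPM in WT and at 22, 37.9 and 47.3 in Npc1-/- libraries, so the groups did not overlap, but only just. C1qb (chr4:136880129-136886187) was at 47.6, 32.5 and 38.5 in WT and at 15.9, 22.2 and 33.7 in Npc1-/- libraries. C1qc (chr4:136889804-136893065) was at 52.8, 31.9 and 41.8 in WT and at 16.1, 25.1 and 33.5 in Npc1-/- libraries. In C1qb and C1qc the Npc1-/- replicate 3 lay above WT replicate 2. The Npc1-/- means were 60%, 60.5% and 59.1% of the WT means for C1qa, C1qb and C1qc, and the log2 fold changes were -0.78, -0.76 and -0.78 (limma, adjusted p = 0.169, 0.155 and 0.165). The ratio of C1qa to C1qb was 1.5 ± 0.0348 in WT and 1.5 ± 0.182 in Npc1-/- cells (SD, n = 3), and that of C1qc to C1qb was 1.06 ± 0.0679 and 1.05 ± 0.0738. The mean proportions of the chains were thus nearly the same in both genotypes. Without Npc1-/- replicate 1, which had the lowest level of each chain, the log2 fold changes of C1qa, C1qb and C1qc were -0.47, -0.51 and -0.50.

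Sall1 (chr8:89027235-89044162, minus strand), a zinc finger transcription factor that holds microglial identity and is also expressed by neural progenitors, did not follow the other 9. It was at 7.02, 5.59 and 5.46 scaled TPM in WT and at 7.25, 7.81 and 6.29 in Npc1-/- libraries. The groups overlapped, and the log2 fold change was 0.23 (SE 0.14, interval -0.09 to 0.55; limma, adjusted p = 0.384). On the TPM as deposited, where the median over all genes was -0.33, it was -0.12. Sall1 rested on about 826 to 1416 fragments per library.

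**Figure D2:**
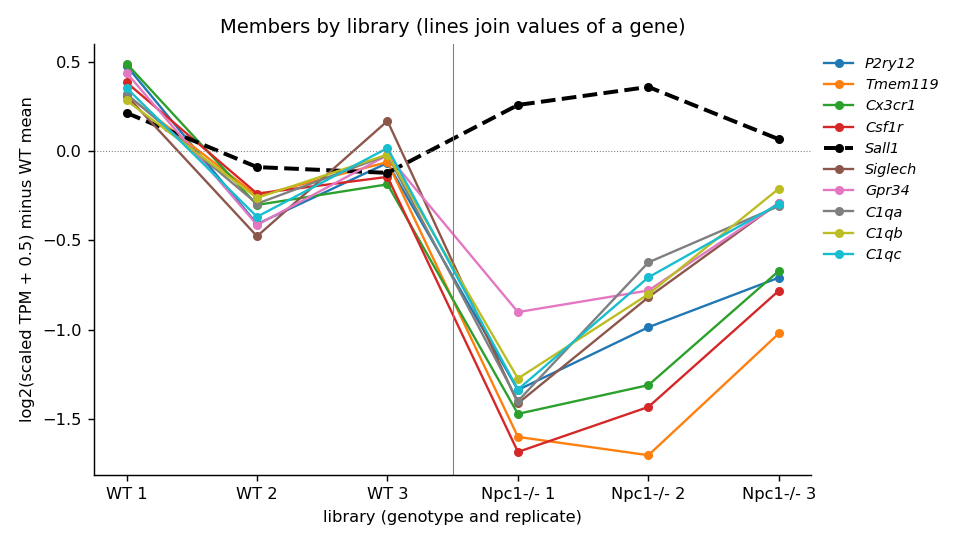
Each line is 1 of the 10 genes over the 6 libraries, as log2(scaled TPM + 0.5) minus the mean of the 3 WT libraries, with Sall1 dashed. The other 9 genes are highest in WT replicate 1, lie below the WT mean in every Npc1-/- library, and are highest among the Npc1-/- libraries in replicate 3, while Sall1 stays between -0.12 and 0.36.

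The 9 genes other than Sall1 varied together from library to library also within a genotype. Over the 6 libraries, the correlation of each with the mean of the others was 0.930 (Tmem119) to 0.986 (P2ry12), and that of Sall1 was -0.495. These correlations are a description over 6 points that include the genotype difference. The size factors were 1.10, 0.855 and 0.727 in Npc1-/- replicates 1, 2 and 3, and each moves all genes of its library together. As deposited, P2ry12 was at 14.2, 14.1 and 14.6 TPM and C1qa at 24.2, 32.4 and 34.4 TPM in these libraries. Within WT the highest library of each member was replicate 1, and the highest was 1.29 to 1.95 times the lowest. Within Npc1-/- the highest was 1.24 to 2.5 times the lowest, and replicate 3 was the highest for 9 of the 10 genes. By the same measure the 5 genes outside all lists nearest to the profile of the 10, among 9061 candidates averaging 5 TPM or more, were Gsta4 (0.994), Il10rb (0.992), Atp1b2 (0.987), Mlc1 (0.987) and Arhgef17 (0.986). Their log2 fold changes were -0.41, -0.54, -0.67, -0.60 and -0.59, with limma adjusted p of 0.109, 0.0879, 0.0678, 0.0769 and 0.0755, and 117 genes had a correlation above 0.95.

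The genes were next set against 22 other genes of microglia, which takes out a shift that all of these share. Most of these other genes also had lower values (20 of 22, median log2 fold change -0.71, 0 called by limma, 13 lower and 1 higher at an unadjusted p below 0.05, and with no overlap between groups in 14 of the lower and 1 of the higher genes, against 14.2% and 13.3% of all tested genes). Their summed level was 213 to 293 scaled TPM in WT and 123 to 201 in Npc1-/- libraries. Scaled to their mean, the median of the 10 was -0.19, and the groups did not overlap for P2ry12, Tmem119, Cx3cr1 and Csf1r, which were lower, nor for Sall1, which was higher. The share of all tested genes without overlap on this scale was not counted, so the lack of overlap is only described here. On this log2 scale Tmem119 fell by 0.82 (SE 0.27; limma, adjusted p = 0.0125) and Csf1r by 0.68 (SE 0.27; adjusted p = 0.0298), where 0.243% of all genes were called lower. Their unadjusted p (limma) was larger than without this scaling, at 0.0025 against 2.81e-04 for Tmem119 and 0.0106 against 0.00138 for Csf1r. The adjusted p was smaller all the same, since the adjustment is milder where 47.6% of all genes are called higher. Calls on this scale therefore cannot be set beside those without it. Cx3cr1 was at -0.53 (adjusted p = 0.0814) and P2ry12 at -0.39 (adjusted p = 0.184). Siglech (-0.22), Gpr34 (-0.04), C1qa (-0.16), C1qb (-0.14) and C1qc (-0.16) were near 0, with intervals that reached from -0.77 to 0.53. Sall1 rose by 0.84 (SE 0.27; limma, adjusted p = 0.0110) and was called higher, as were 47.6% of all tested genes on this scale. It sets the microglial genes as the reference.

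**Figure D3:**
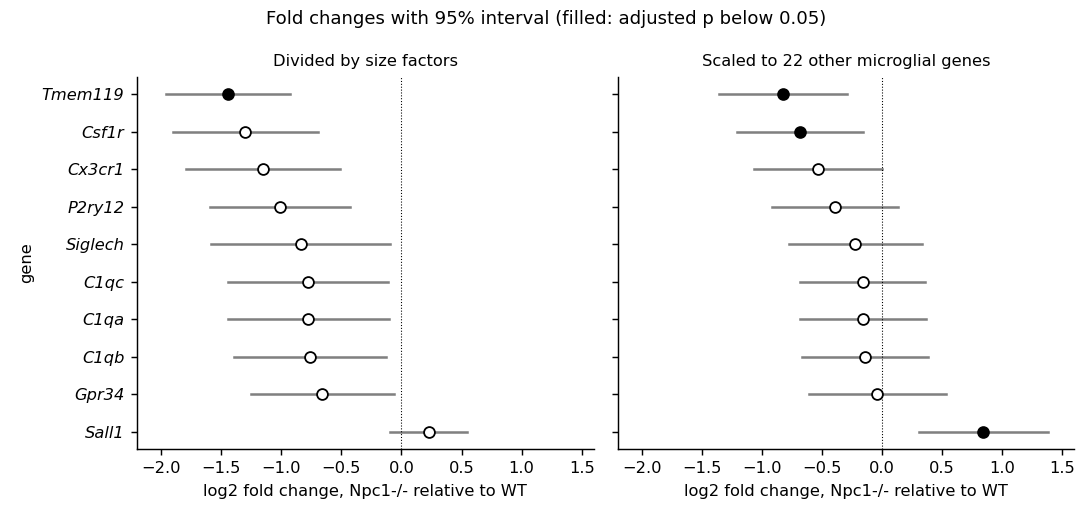
Log2 fold changes of the 10 genes (Npc1-/- relative to WT) with the 95% interval as a line, on TPM divided by size factors (left) and after scaling to 22 other microglial genes (right), with filled points for an adjusted p below 0.05. On the left Tmem119 alone is filled (-1.44). On the right Tmem119 (-0.82), Csf1r (-0.68) and Sall1 (0.84) are filled, and the C1q genes lie near 0. On that scale 47.6% of all genes were called higher, so filled points cannot be compared between the sides.

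The ratios of single genes in the same library, which need no scaling, were compared as well. Csf1r to C1qa was 0.892, 0.886 and 0.782 in WT and 0.694, 0.481 and 0.611 in Npc1-/- libraries, with no overlap. Tmem119 to C1qa was 0.201, 0.205 and 0.194 in WT and 0.161, 0.0860 and 0.117 in Npc1-/- libraries, also with no overlap. The ratios to C1qa overlapped between the groups for P2ry12 (0.567 ± 0.0580 in WT and 0.482 ± 0.0894 in Npc1-/-, SD, n = 3), for Cx3cr1 (0.216 ± 0.0269 and 0.161 ± 0.0334) and for Siglech (0.0972 ± 0.0145 and 0.0862 ± 0.00893). The ratio of Csf1r to P2ry12 overlapped as well (1.41 to 1.7 in WT and 1.10 to 1.44 in Npc1-/-). The ratio of Cx3cr1 to P2ry12 did too. That of Tmem119 to P2ry12 did not overlap and was lower in Npc1-/- libraries (mean 0.3546 in WT and 0.2492 in Npc1-/-). Those of Gpr34 (0.1162 and 0.1399) and Sall1 (0.1828 and 0.4498) to P2ry12 did not overlap either, and were higher in Npc1-/- libraries. How often ratios of other genes are without overlap was not counted, so these ratios are only described. Relative to C1qa, Csf1r and Tmem119 were thus separated between the groups, while P2ry12 and Cx3cr1, separated when scaled to the 22 genes, were not.

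Among the other microglial genes the log2 fold changes furthest below 0 were those of Selplg, a selectin ligand (13.7 ± 1.82 against 4.45 ± 1.69 scaled TPM, log2 fold change -1.57, limma adjusted p = 0.0503), P2ry6, a UDP receptor (-1.13, adjusted p = 0.0923), and Itgam, the α chain of the complement receptor CR3 (-1.0, adjusted p = 0.0785). At the other end stood Kcnk13, the potassium channel THIK-1 (6.27 ± 0.608 against 10.5 ± 1.8, log2 fold change 0.70, adjusted p = 0.059), Trem2, a lipid receptor (0.04), and its adaptor Tyrobp (-0.00). Trem2 was at 6.08 ± 1.38 in WT and 6.26 ± 1.47 in Npc1-/- cells, and Tyrobp at 13.4 ± 3.24 and 13.5 ± 3.9. Aif1, which encodes IBA1, was likewise at 3.97 ± 0.868 and 3.93 ± 0.818 (chosen after its values were seen). On TPM as deposited Trem2, Tyrobp and Aif1 were at -0.31, -0.37 and -0.34, near the median of all genes. On the scaled levels, microglial genes with nearly the same mean in both genotypes therefore stood beside genes at under 50% of it.

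The signals that maintain microglia were also examined, and 0 of 16 tested genes were called, 14 of them with lower values (median -0.52). At an unadjusted p below 0.05, 11 were lower and 1 was higher. Of the ligands of CSF1R, Il34 was at 16.4 ± 1.99 scaled TPM in WT and 9.65 ± 2.86 in Npc1-/- cells (log2 fold change -0.78, limma adjusted p = 0.101), and Csf1 at 12.4 ± 0.511 and 16 ± 1.3 (0.35, adjusted p = 0.0911). Neither passed the threshold, and on TPM as deposited Csf1 was at -0.01. The TGF-β receptor gene Tgfbr2 was at -0.83 (adjusted p = 0.0557), the TGF-β activator gene Nrros at -0.91 (0.0815) and the transcription factor gene Mef2c at -0.94 (0.0589). Smad3 (0.21, and -0.14 on TPM as deposited) and Sall3 (-0.03) were the nearest to 0 or above it after Csf1. Spi1, which encodes PU.1, was at 2.93 ± 0.851 in WT and 1.59 ± 0.676 in Npc1-/- cells (-0.74, adjusted p = 0.206).

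Among the other genes of complement, 0 of 15 tested genes were called (7 lower and 1 higher at an unadjusted p below 0.05) and the median was -0.20. C1s1, one of the proteases that act with C1q, was at -0.91 (limma, adjusted p = 0.115), while C4b, the next component, was at 0.66 (0.199), Csmd3 at 0.20 and Csmd1 at 0.14. On TPM as deposited Csmd3 was at -0.03 and Csmd1 at -0.13. Of genes that microglia raise in disease, 0 of 19 were called (2 lower and 4 higher at an unadjusted p below 0.05), with 10 at higher and 9 at lower values. The highest were Gpnmb (log2 fold change 1.44, limma adjusted p = 0.0639), Lgals3 (0.95, 0.0651) and Cd63 (0.59, 0.0557), and the lowest Axl (-0.79, 0.068), Lpl (-0.72, 0.0623) and Apoe (-0.39, 0.298). Gpnmb was at 0.208 to 0.289 scaled TPM in WT and 0.762 to 2.41 in Npc1-/- libraries, so it passed the filter of 0.5 TPM only through the latter. Apoe and Cd63 averaged 3205 and 98.4 TPM over all libraries, beside 49.8 for C1qa. Which cells the RNA of the disease genes came from was not measured.

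Markers of some other cell types were also lower in Npc1-/- libraries. Perivascular macrophages express Csf1r, Cx3cr1 and C1q as well, and of their 9 tested markers 9 had lower values and 5 were called lower. These were Cd163 (log2 fold change -2.29, limma adjusted p = 0.0102), Mrc1 (-1.90, 0.0364), F13a1 (-1.56, 0.0364), Cbr2 (-1.48, 0.0272) and Stab1 (-1.25, 0.0364). The summed level of the macrophage marker list was 39.4 to 57.6 scaled TPM in WT and 14.9 to 16.9 in Npc1-/- libraries. This sum does not give how much of the Csf1r, Cx3cr1 or C1q RNA came from macrophages. All 8 endothelial markers were lower (median -0.80, 0 called, 7 lower at an unadjusted p below 0.05, summed level 901 to 1055 in WT and 463 to 751 in Npc1-/-), among them Cldn5 (-0.54) and Ly6c1 (-0.63). Of 8 astrocyte markers 7 were lower (median -0.58, 0 called, 4 lower and 1 higher at an unadjusted p below 0.05, summed level 689 to 753 against 465 to 878), with Aldoc at -0.21 and Gfap at 1.01. The part of these cells in the lower microglia genes was not tested.

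**Figure D4:**
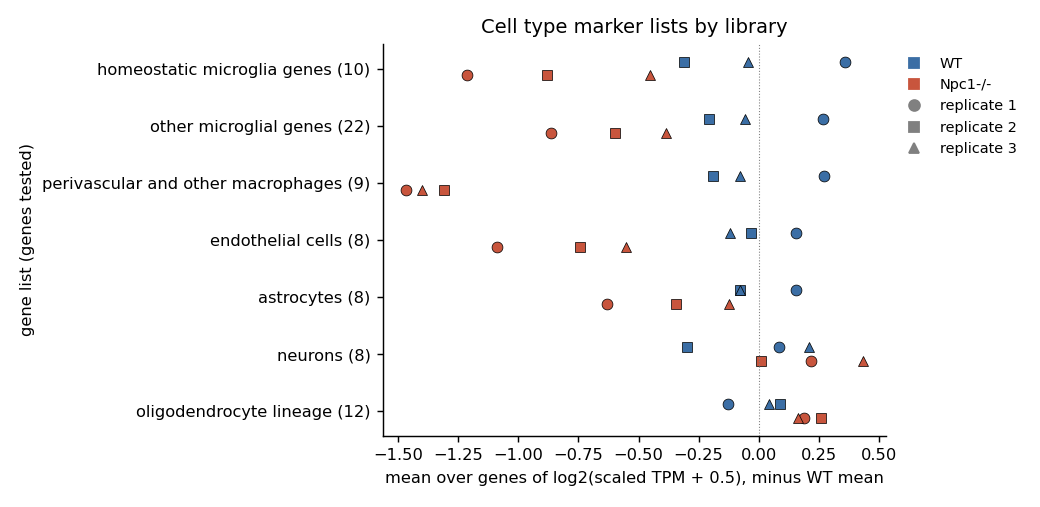
Points show, for each library and marker list, the mean over the tested genes (number in brackets) of log2(scaled TPM + 0.5) minus the WT mean. Npc1-/- libraries are left of the WT libraries for both microglia lists (-1.21 to -0.45 for the 10 genes), perivascular macrophages (-1.47 to -1.31), endothelial cells and astrocytes, and replicate 3 lies nearest to WT in the microglia, endothelial and astrocyte lists.

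The remaining lists are given by their values. Oligodendrocyte lineage markers had a median of 0.16 with 0 of 12 called. Mbp, the most abundant, was at 0.57, and the 1 gene higher at an unadjusted p below 0.05 was Mag (0.42). The median turned to -0.21 on TPM as deposited and to -0.08 with quantile normalization. Neuronal markers had a median of 0.19 with 0 of 8 called (Tubb3 at 0.44, Snap25 at 0.30; summed level 88.7 to 126 against 126 to 156). The 1 gene higher at an unadjusted p below 0.05 was Stmn2 (0.53), and the median was -0.14 on TPM as deposited. Monocyte and neutrophil markers passed the filter in 3 of 8 cases, 0 called and 0 at an unadjusted p below 0.05, with 3 of 3 at lower values (median -0.34), among them Ly6c2 at -0.57 and S100a9 at -0.12 (summed level 15.5 to 30.3 against 10.2 to 27.2). Lymphocyte markers were too low to be tested, with Cd3d and Cd8a at 0 in all libraries and a summed level of 0.976 to 1.82 against 0.835 to 1.46.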

How the data were processed

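RNA from O4-purified cells of 3 WT and 3 Npc1-/- mice was analysed. The authors deposited TPM and FPKM for 55492 genes. Per the labels, FastQC 0.11.8, cutadapt 2.3, STAR 2.7.8a, RSEM 1.3.3 and MultiQC 1.7 were used on GRCm38; the methods name bbduk, STAR and featureCounts. Which of these made the TPM and FPKM values, and with which strand setting, is not stated.

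TPM was divided by median-of-ratios size factors, 0.5 was added and log2 taken, so fold changes of low genes are understated. The 15245 genes averaging 0.5 TPM or more entered limma 3.58.1 in R 4.3.3 (eBayes with trend, two-sided, genotype as the only factor, Benjamini-Hochberg). Calls needed an adjusted p below 0.05 and a log2 fold change of 0.1 or more in size. On simulated data 162 of 200 genes changed by 1.5 (log2) were recovered, and 7 unchanged genes were called. The simulated noise was independent between genes, and 1.5 is more than the largest change of a member (Tmem119, -1.44). These counts therefore do not give the power or the error of the test for the 10 genes. The scaling to microglia subtracts, per library, the mean log2 level of 22 other microglial genes. Positions are from GENCODE M21 and promoters from RefSeq. Depth was estimated where a gene has 1 transcript, from the spacing of its low FPKM values (78.6% to 83.1% within 0.15 of a whole number of fragments, 30% by chance). Whole fragments could not be had for other genes, so no count test was run.

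The members and all lists were chosen with earlier results of these data known. The text names all 10 members, genes overlapping them that average 0.5 TPM or more, called genes and the 3 largest rises and falls of the microglial, signal, complement and disease lists, the 2 most abundant markers of each other cell type, and the 5 genes of most similar profile. Some genes that this rule names are not reported here. Il34, Spi1, Aif1, Mag, Stmn2, called macrophage genes and dissociation genes were added after their values were seen.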

Additional observations from a re-analysis of the deposited data

How the results depend on the processing

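The 9 genes other than Sall1 were below 0 in 151 of 151 alternative values (-1.79 to -0.04), and Sall1 turned to -0.12 on TPM as deposited. The number of the 10 genes called, 1 in the report, was 8 on TPM as deposited, 0 with no filter and 0 with no trend in the variance. Leaving out 1 library gave 0 to 3. With a mean TPM of at least 5, a filter that Siglech and Gpr34 did not pass, the number was 2. Scaled to other microglial genes it was 3, with Tmem119 and Csf1r lower and Sall1 higher. On that scale 0.243% of all genes were called lower and 47.6% higher. The number of all genes called, 124 in the report, was 924 on TPM as deposited, 447 with a mean TPM of at least 5, 225 with quantile normalization, 21 with no filter and 42 with no trend; leaving out 1 library gave 5 to 488, the highest without Npc1-/- replicate 3. The median of the 10 log2 fold changes, -0.81, was -1.16 on TPM as deposited and -0.19 scaled to other microglial genes, and -1.08 to -0.55 with 1 library left out. The call of Tmem119 was lost in 7 of 17 alternatives (limma, adjusted p 0.0678 to 0.190) and kept in the others (0.0100 to 0.0449). On TPM as deposited the median over all genes was -0.33. The causes were not tested.

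Libraries with the same replicate number deviated together for numbers 1 and 3 (correlations 0.414 and 0.326) and hardly for 2 (0.0602), so the numbers were not taken to pair the mice. With a replicate block 2 of the 10 genes and 2011 of all genes were called.

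Precision is limited by 3 mice per genotype. From the shortest to the longest transcript, Gpr34 rests on about 97 to 402 fragments per library and Tmem119 on about 9 to 1183, and TPM has 2 decimals.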

Other observations

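Genes that respond to cell dissociation, which microglia among other cells switch on while tissue is digested, did not separate by genotype. Of 14 such genes 12 were tested and 0 were called (limma). Only Dusp1 (-0.74) was lower at an unadjusted p below 0.05 (limma). The median log2 fold change was -0.25, with 10 genes at lower and 2 at higher values, and 0 of 12 were without overlap between the groups. The summed level of the dissociation genes was 204 to 280 scaled TPM in WT and 157 to 289 in Npc1-/- libraries. Ccl3 and Ccl4 were the 2 genes with higher values. The chemokine gene Ccl3 was at 1.87, 1.09 and 0.645 scaled TPM in WT and at 0.962, 2.56 and 4.69 in Npc1-/- libraries, and Ccl4 at 0.764, 0.0813 and 0.587 against 0.218, 1.24 and 1.54. Both were low, both were highest in Npc1-/- replicate 3, and neither passed the test (limma, adjusted p = 0.373 and 0.537).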
